A study of Mus musculus with 5 samples.

Results

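Isotype-only regions are short stretches of the genome that were recovered with normal rabbit immunoglobulin G (IgG) in both control libraries of a chromatin immunoprecipitation sequencing (ChIP-seq) experiment, and in neither library made with an antibody to c-Maf. There were 397 of them among 111088 merged regions on chromosomes 1 to 19 and X (111856 regions in all). A merged region joins every peak of the 4 peak lists that overlaps by at least 1 bp. The isotype-only regions were selected on the peak calls themselves, so their presence in the isotype lists and absence from the c-Maf antibody lists are given as description, and the same holds for their pileup, fold enrichment and p-value.

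The cells were bone marrow macrophages of C57Bl/6 mice. Their cell type label describes M2 polarization in vitro, whereas M0 stands in every sample title, and nothing in the labels settles which applies. No genetic change and no dose is given for any group. Chromatin was fixed with formaldehyde, sheared, and precipitated with the c-Maf antibody (2 libraries) or with the rabbit IgG as isotype control (2 libraries), and 1 input library completes the 5 samples. Each antibody has a library numbered 3 and one numbered 4, which the series' design text treats as biological replicates. No gene expression was measured, so the cell type could not be checked against markers here.

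An isotype antibody has no intended target in the cell. Chromatin that it brings down comes from nonspecific binding to the beads or to immunoglobulin, and such libraries serve as the background for an antibody of interest. Macrophages also carry Fc receptors, which bind the constant part of immunoglobulins. Short tags from repeated sequence can pile up on one copy in every library when an assembly holds too few copies or when tags are placed on one of several equal sites. Input chromatin, which is sequenced without any precipitation, is used to estimate that local excess.

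Sequence of the regions as such was not analysed here. Of the 32619 RefSeq promoter windows in GRCm38.p6 coordinates, each running from 250 bases before to 50 after a gene start, 2 were overlapped by an isotype-only region and 16 by a c-Maf-only region (the same rule with the antibodies exchanged, 473 regions). Both are shown because they are the only promoters that isotype-only regions reached. In the Zfp600 and Gm40987 sequences capitals mark the bases that the region covers. Among the promoter windows, that of Rex2 is the closest in sequence to that of Zfp600, and the capitals in its sequence mark stretches shared with Zfp600 over at least 1 tag length of 50 bases. The Gm21119 sequence, from a cluster on chromosome 8, is in capitals throughout because all of it is also found in the promoter of 4930467E23Rik.
Zfp600, chr4:146156577-146156876, plus strand: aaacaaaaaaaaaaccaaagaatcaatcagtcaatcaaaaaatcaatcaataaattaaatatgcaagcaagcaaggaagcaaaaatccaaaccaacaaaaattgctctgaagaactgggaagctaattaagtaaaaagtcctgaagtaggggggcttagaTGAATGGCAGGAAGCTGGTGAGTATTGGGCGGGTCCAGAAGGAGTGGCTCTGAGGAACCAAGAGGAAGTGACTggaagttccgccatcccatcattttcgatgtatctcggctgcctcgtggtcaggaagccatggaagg
Rex2, chr4:147021600-147021899, plus strand: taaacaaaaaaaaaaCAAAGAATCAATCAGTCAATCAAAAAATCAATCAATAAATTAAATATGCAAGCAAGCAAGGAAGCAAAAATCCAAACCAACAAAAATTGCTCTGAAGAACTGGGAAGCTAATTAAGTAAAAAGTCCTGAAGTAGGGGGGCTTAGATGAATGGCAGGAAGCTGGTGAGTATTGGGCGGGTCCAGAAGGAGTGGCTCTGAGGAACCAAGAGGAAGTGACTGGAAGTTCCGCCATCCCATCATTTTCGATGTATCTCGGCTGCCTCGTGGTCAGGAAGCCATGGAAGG
Gm40987, chr13:65990947-65991246, minus strand: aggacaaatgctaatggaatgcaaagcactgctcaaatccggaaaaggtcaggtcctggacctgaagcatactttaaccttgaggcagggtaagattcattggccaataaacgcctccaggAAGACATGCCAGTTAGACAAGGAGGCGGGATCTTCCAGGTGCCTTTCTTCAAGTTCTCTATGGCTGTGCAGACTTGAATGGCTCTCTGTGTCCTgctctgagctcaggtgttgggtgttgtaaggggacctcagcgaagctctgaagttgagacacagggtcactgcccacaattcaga
Gm21119, chr8:20614677-20614976, plus strand: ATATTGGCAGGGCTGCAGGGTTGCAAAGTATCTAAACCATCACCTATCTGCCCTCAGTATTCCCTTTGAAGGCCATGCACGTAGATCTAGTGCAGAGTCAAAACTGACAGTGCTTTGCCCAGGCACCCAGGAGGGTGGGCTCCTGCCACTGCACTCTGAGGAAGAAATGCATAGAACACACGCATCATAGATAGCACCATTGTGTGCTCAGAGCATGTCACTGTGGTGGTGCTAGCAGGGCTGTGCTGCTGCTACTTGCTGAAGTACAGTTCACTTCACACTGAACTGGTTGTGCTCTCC

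The region at Zfp600, a zinc finger gene of a family that has expanded on mouse chromosome 4, covered 73 bases of the window and ended 18 bp before the gene. The Zfp600 and Rex2 windows agreed at 299 of 300 aligned bases, and 236 of the 251 possible 50-base tags of the Zfp600 window occurred in another gene's promoter as well (Rex2, Zfp979, Zfp980 and Zfp982). The Gm40987 window, covered over 94 bases, shared none of its 251 tags with another gene's promoter. The Gm21119 window was identical to that of 4930467E23Rik at 300 of 300 bases. Maf proteins bind an element whose core is that of AP-1, written TGACTCA, extended by flanking bases. Neither promoter overlapped by an isotype-only region held the core on either strand, and 5.22% of all promoter windows did. The flanked end of the element, written TGCTGA, was in 19.5% of all windows and likewise in neither of these. At these rates so few windows would often hold neither sequence, so the absences say little about Maf binding. The Gm21119 window, which no isotype-only region overlapped, holds TGCTGA. The rates among windows overlapped by c-Maf-only regions are not reported here.

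The isotype-only regions were a small fraction of what the isotype libraries yielded. Isotype number 3 had 58732 peaks and isotype number 4 had 15568, against 23434 and 17620 for the c-Maf antibody, from 21655683 to 22017759 tags per library. The regions made up 0.681% of the isotype number 3 peaks on the chromosomes used and 2.59% of those of number 4. Regions that held a peak of both isotype libraries numbered 621. Of these, 397 (63.9%) had no c-Maf antibody peak, 109 (17.6%) had a peak in 1 c-Maf antibody list and 115 (18.5%) had one in both lists. Each isotype-only region held exactly 1 peak of each isotype list.

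Pileup, the number of tags stacked at the summit after scaling to the input's depth, was low in most regions. In isotype number 3 the lowest value was 2.94, the median 4.89 and the highest 22.51 scaled tags. In isotype number 4 they were 3.92, 5.89 and 33.36. In unscaled tags the medians were 5 and 6, and 179 of the 397 regions (45.1%) rested on 4 tags or fewer in number 3. The 2 lists had different floors. Of all isotype number 3 peaks, 18.9% held 3 tags, and 57 of the regions did, while no peak of number 4 held fewer than 4. Number 4 had more tags than number 3 in 252 regions, fewer in 68 and the same number in 77.

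The fold enrichment over input, to which 1 scaled tag is added in both pileup and input, had a median of 3.46 in number 3 (1.80 to 6.89) and 4.09 in number 4 (1.72 to 8.84). Few regions were strong by the authors' own q-value. At 0.05, 8 passed in number 3, 20 in number 4 and 5 in both. The local input level, recovered from pileup and fold enrichment, had medians of 0.423 and 0.448 scaled tags, and 261 regions lay below 0.5 in both lists. An input of 2 or more was found at 35 regions and of 10 or more at 2. The cut at 2 separates regions of nearly equal input, such as 2.00059 and 1.9999. Counts at that cut, here and below, therefore rest partly on very small differences.

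Regions were narrow. Their width had a median of 99 bp, with a range of 56 to 253 bp, where the c-Maf-only regions had a median of 125 bp. MACS estimated fragments of 53 bp (number 3) and 56 bp (number 4) for isotype and of 63 bp and 60 bp for c-Maf, and the shortest peak a list can hold is set by that length, so the 2 widths were not tested against each other. The summits of the 2 isotype libraries lay a median of 30 bp apart (0 to 159 bp) and within 50 bp of each other in 292 of 397 regions. The peaks overlapped by a median of 47 bp.

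**Figure D1:**
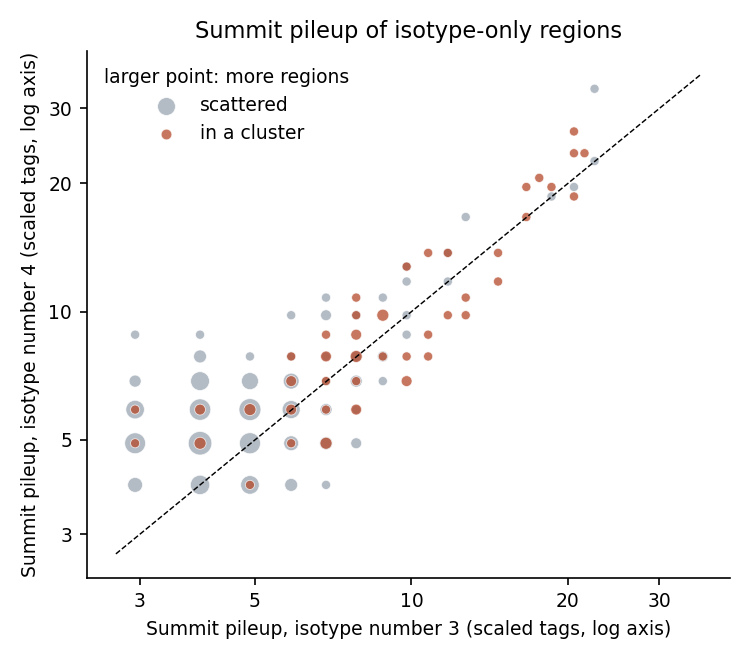
Summit pileup of the 397 isotype-only regions in isotype number 3 (x axis) and number 4 (y axis), in scaled tags on log axes, with scattered regions in grey and clustered ones in red. Larger points stand for more regions and the dashed line marks equal values. Most scattered regions sit near the lower left, and the regions above 15 scaled tags in both libraries are few.

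The region with the best mean rank of p over the 2 isotype lists was at chr12:15253573-15253640. Its pileup was 12.72 in number 3 and 16.68 in number 4, and its fold enrichment 6.86 and 8.84. It lay far from any protein-coding gene: the nearest was Trib2, a pseudokinase gene, 538085 bp away. The second, chr5:14984997-14985066, had pileups of 17.62 and 20.61 and lay 6042 bp from Gm10354, in a family of Speer-related genes expressed in testis. The region at chr2:106957542-106957653 had pileups of 7.83 and 9.81 and fold enrichments of 6.07 and 7.33, and lay 4876 bp from Arl14ep, which encodes a partner of the small GTPase ARL14. At chr11:3177440-3177528, inside Sfi1, whose product binds centrin at the centrosome, pileups were 21.53 and 23.55. These 4 regions were among the 5 that passed a q-value of 0.05 in both lists. The fifth was at chr8:96968804-96968907, with pileups of 8.81 and 7.85, 1080403 bp from Got2, the gene of a mitochondrial aminotransferase.

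High pileup and high fold enrichment were not the same thing. The highest pileups were at chr5:15509207-15509298, 15158 bp from Gm21190, with 22.51 in number 3 and 33.36 in number 4 but an input of 9.0 and 8.0 scaled tags and fold enrichments of 2.35 and 3.82. The region at chr10:3116696-3116771, 3070 bp from 9230019H11Rik, had pileups of 22.51 and 22.57 over inputs of 11.0 and 11.5, and fold enrichments of 1.96 and 1.89. A region inside Duxf3, a double homeobox gene of a tandem array, had pileups of 20.55 and 23.55 over an input of 8.0 in each list. The region 34261 bp from Zfp746 on chromosome 6 (20.55 and 19.62) had the lowest fold enrichments of all in both lists, 1.80 and 1.72. The region 34255 bp from Scaf8 on chromosome 17 had pileups of 18.60 and 18.64, and its input was 9.0 in one list and 4.87 in the other. Sfi1 or its flank held 4 of the 10 highest pileups, and the region near Gm10354 named above was the tenth. All 10 had a local input above 3 scaled tags in both lists.

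The widest regions were of another kind. The widest, 253 bp inside Ptprm, a receptor tyrosine phosphatase gene, had pileups of only 3.92 in both libraries. A 248 bp region inside Gria1, which encodes a glutamate receptor subunit, had 3.92 and 5.89, as did a 224 bp region 112712 bp from Inhbb, which encodes an activin subunit. Regions inside Ptprb (199 bp, pileups 4.89 and 3.92) and Pxdn (197 bp, 4.89 and 5.89) were as weak. The other 5 of the 10 widest lay in clusters on chromosomes 7, 8 and 4, with widths from 191 to 250 bp and pileups from 6.87 to 16.68.

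Most isotype-only regions were scattered. Regions that followed one another within 100 kb were taken as a cluster, which gave 20 clusters with 60 regions (15.1%, 95% Wilson interval 11.9 to 18.97%), and the other 337 regions had no neighbour that close. Of the clusters, 11 had 3 or more regions and held 42 of them in 1243 kb of span. The c-Maf-only regions were clustered to a like extent, with 76 of 473 (16.1%, 13.0 to 19.6%) in 27 clusters, the largest of 10. Wilson intervals here and below cover counting error only and treat regions as independent. The number of clustered regions followed how far a cluster may reach, with 3.78% at 10 kb and 32.0% at 1 Mb.

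By chromosome, the most isotype-only regions were on chromosome 1 (38), chromosome 4 (34, of which 14 clustered) and chromosome 8 (26, of which 11 clustered). The fewest were on chromosome 19 (4). As a share of the isotype number 4 peaks of the same chromosome, they ranged from 1.18% (0.461 to 3.00%) on chromosome 19 to 3.33% (2.40 to 4.62%) on chromosome 4. These intervals overlapped. With the scattered regions alone, chromosome 4 stood at 1.96% and chromosome 12, which had no cluster, at 3.19%.

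**Figure D2:**
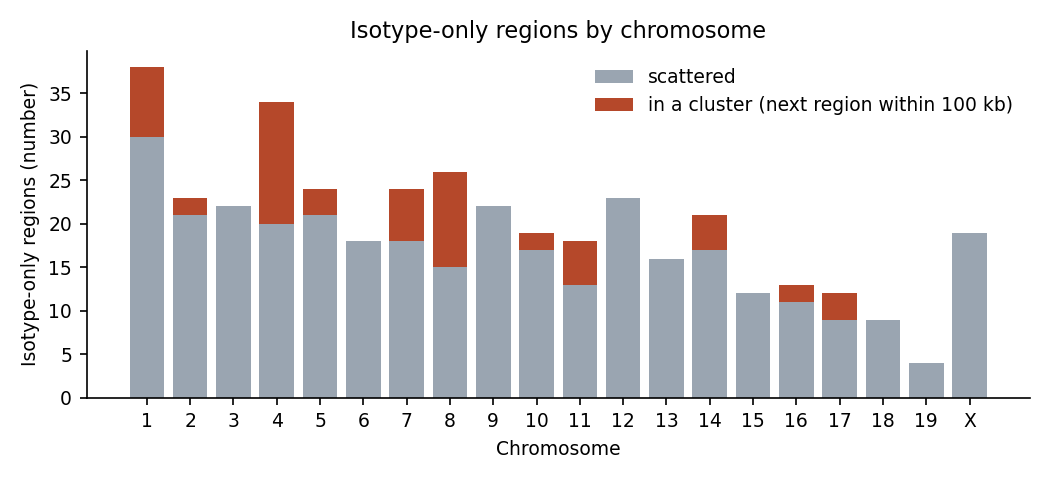
Number of isotype-only regions (y axis) on each chromosome (x axis), with regions in a cluster in red on top of scattered regions in grey. Chromosomes 1, 4 and 8 have the highest bars, and the clustered regions make up 14 of 34 on chromosome 4 and 11 of 26 on chromosome 8.

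Clustered regions differed from scattered ones in level and in input. Their median pileup was 7.83 in number 3 and 7.85 in number 4, against 3.92 and 5.89 for scattered regions. Their median input was 1.21 and 1.29 scaled tags, against 0.421 and 0.444. An input of 2 or more was found at 25 of 60 clustered regions (41.7%) and 10 of 337 scattered ones (2.97%). Median fold enrichment was 3.46 in number 3 for both classes, and in number 4 it was 3.52 for clustered and 4.09 for scattered regions. These are descriptions of values that enter the peak calls. What part the input level has in the clustering was not tested. When only regions with an input below 2 in both lists were kept, 362 regions remained and 7.46% of them were clustered. That filter takes out the 25 clustered and 10 scattered regions just named, so a lower clustered share follows from the filter itself. Under the same filter the clustered share of c-Maf-only regions went from 16.1% to 6.25%.

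The cluster spans also carried peaks of the c-Maf antibody libraries. Of the 20 spans, 17 held a c-Maf antibody peak and 15 held peaks of both lists. The 11 spans with 3 or more regions held 213 and 230 peaks of isotype numbers 3 and 4, and 186 and 176 peaks of c-Maf antibody numbers 3 and 4. That is 150 c-Maf antibody number 3 peaks per Mb, 17.0 times that list's density over all chromosomes, and 142 per Mb for number 4, 21.4 times. For the isotype lists, whose peaks define the spans, the ratios were 7.73 and 31.8. A c-Maf antibody peak lay within 1 kb of 25 of the 60 clustered regions (41.7%) and of 19 of the 337 scattered ones (5.64%). All 4 lists were called against the same input, so they are not independent there.

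**Figure D3:**
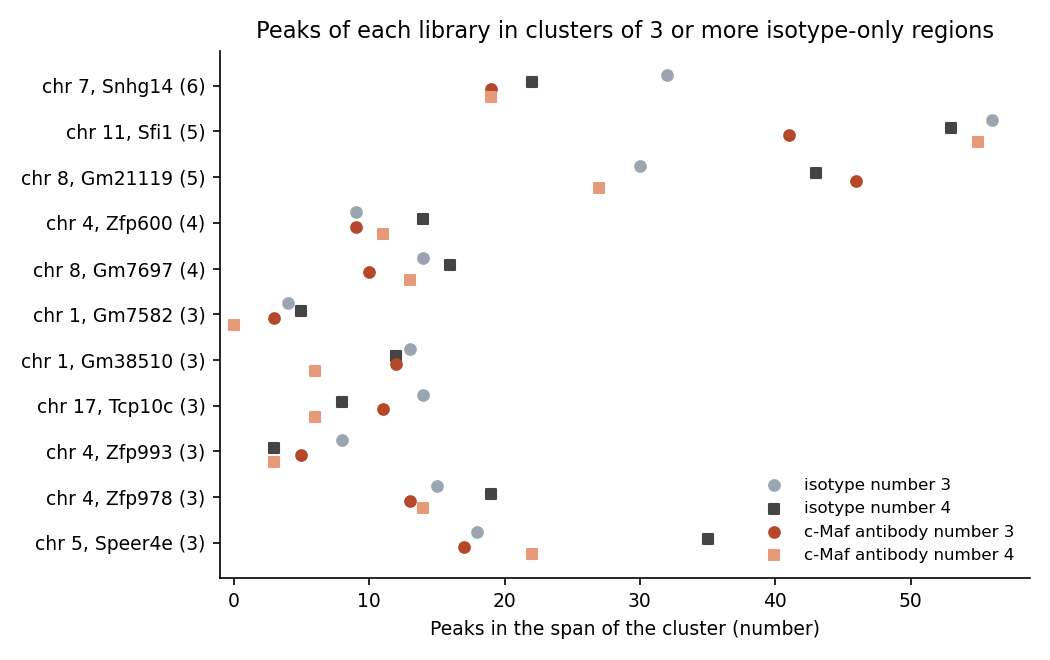
Peaks of each library (x axis, number) in the span of each cluster of 3 or more isotype-only regions (y axis, named by chromosome and a gene in the span, with the number of isotype-only regions in brackets). Grey and black points are isotype libraries and red and orange points c-Maf antibody libraries. Apart from 1 span at Gm7582 with no c-Maf antibody number 4 peak, every span holds peaks of all 4 libraries.

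The largest cluster had 6 regions in chr7:59720460-59868828, all inside Snhg14, a long noncoding RNA that hosts arrays of small nucleolar RNAs in the imprinted Prader-Willi region. The span overlapped 39 annotated snoRNAs, and 2 of the regions lay on one, Gm24760 and Snord116l17. No protein-coding gene lay in the span, and the nearest was Snrpn, 113667 bp from its edge. Pileups ran from 5.87 to 16.64 in number 3 and from 5.89 to 16.68 in number 4. The highest, at chr7:59769768-59770017, had an input of 7.0 and 8.0. The span held 32 and 22 isotype peaks and 19 c-Maf antibody peaks in each list.

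The 5 regions in chr11:3127845-3179791 lay inside Sfi1 (4 regions) or 3878 bp from it (1 region, on the pseudogene Pisd-ps1). Their pileups were the highest of any cluster, from 16.64 to 21.53 in number 3 and from 18.64 to 26.49 in number 4. Inputs ran from 4.86 to 9.0 in number 3 and from 5.13 to 10 in number 4, so that fold enrichments stayed between 2.16 and 3.51. The span held 56 and 53 isotype peaks and 41 and 55 c-Maf antibody peaks, and 15 regions there had a peak of all 4 lists. A c-Maf antibody peak lay within 206 bp of 3 of the 5 regions.

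The 5 regions in chr8:20513910-20701590 lay around the predicted genes Gm21119 and Gm40469, with none inside a protein-coding gene. Pileups ran from 7.83 to 10.77 in number 3 and from 7.85 to 9.81 in number 4. The span held 30 and 43 isotype peaks and 46 and 27 c-Maf antibody peaks, and 5 c-Maf-only regions lay in it. The largest c-Maf-only cluster, of 10 regions at chr8:20265883-20698404, overlapped this span.

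Several neighbouring clusters lay among zinc finger genes of chromosome 4. Between 145674469 and 147434091 on chromosome 4, a stretch of 1.76 Mb chosen after its values were seen, there were 15 isotype-only regions, 12 of them clustered. A Zfp gene was the nearest protein-coding gene of 14. Zfp993 and Zfp978 each held 3 regions. At Zfp993 pileups were 4.89, 7.83 and 10.77 in number 3 and 5.89, 6.87 and 7.85 in number 4. At Zfp978 they were 6.85, 5.87 and 8.81 in number 3 and 7.85, 5.89 and 9.81 in number 4. The stretch also held 4 c-Maf-only regions, and 90 and 116 isotype peaks beside 81 and 86 c-Maf antibody peaks.

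The other clusters of 3 or 4 regions lay at Gm7697 and Gm9495 on chromosome 8, at Gm7582 and at Gm38510 and C130026I21Rik on chromosome 1, at Tcp10c, a t-complex gene, on chromosome 17, and at Speer4e and Gm10354 on chromosome 5. Gm38510 held 3 regions and C130026I21Rik held 2 of them, since the gene models overlap. Only 3 of the 20 spans had no c-Maf antibody peak, and each had 2 regions. One was inside Epha6, an ephrin receptor gene of over 500 kb. The second lay in a gene-poor stretch of chromosome 14 (chr14:111990620-112075301). The third was 395 bp long, on chromosome 8, with 1 of its 2 regions in the pseudogene Gm7807 and a median input of 2.93 scaled tags. A c-Maf antibody peak lay just outside this short span, 259 bp from 1 of its regions. The span also lay within the stretch of the largest c-Maf-only cluster.

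Genes in the cluster spans were compared with all RefSeq promoter windows for shared sequence. Of the 29 genes in the spans that have a window in the promoter table (100 genes in all), 13 (44.8%, 28.4 to 62.5%) shared a stretch of at least 50 bases, the length of a tag, with the promoter of another gene. For genes within 5 kb of a scattered isotype-only region the count was 18 of 122 (14.8%, 9.54 to 22.1%), for genes within 5 kb of a c-Maf-only region 24 of 264 (9.09%, 6.19 to 13.2%), and for all genes with a window 2151 of 26794 (8.03%). These shares describe the genes and were not tested. Tcp10c and Tcp10b agreed at 291 of 300 aligned bases, and the promoter of Speer4e shared stretches with those of 22 other genes. No source used here says how tags with several equal sites were placed, and the part of shared sequence in the clusters was not tested.

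**Figure D4:**
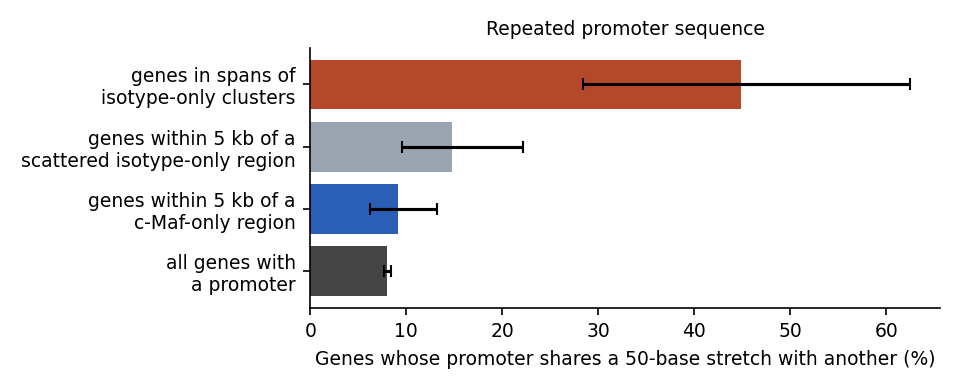
Genes whose promoter window shares a stretch of at least 50 bases with another gene's promoter (x axis, percent, with 95% Wilson intervals as bars), for 4 sets of genes (y axis). The share is 44.8% for genes in the cluster spans and 8.03% for all genes with a window. Genes in the spans of c-Maf-only clusters are not shown.

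In place relative to genes, isotype-only regions lay inside protein-coding genes less often than c-Maf-only regions. The counts were 114 of 397 (28.7%, 24.5 to 33.4%) and 204 of 473 (43.1%, 38.7 to 47.6%), and the difference passed a two-sided Fisher's exact test (p = 1.15e-05, adjusted p = 2.3e-05 over 2 comparisons). Within 5 kb of either boundary of a protein-coding gene lay 42 isotype-only regions (10.6%, 7.92 to 14.0%) and 91 c-Maf-only regions (19.2%, 15.9 to 23.0%; Fisher's exact p = 0.00044, adjusted p = 0.00044). Over 100 kb from any protein-coding gene were 139 isotype-only regions (35.0%, 30.5 to 39.8%) and 80 c-Maf-only regions (16.9%, 13.8 to 20.6%), a difference that was not tested. At a p-value of 1e-05 or smaller neither difference passed the test, with 37.5% against 47.4% inside and 20% against 29.5% within 5 kb. The difference within 5 kb was also lost with isotype peaks overlapping by 50% of each (10.5% against 16.9%), with all genes of the table and without either c-Maf antibody library, and the difference inside genes was lost without isotype number 4 (39.5% against 41.9%). Where a library was left out, the other list alone defined its set. These tests compare regions of 4 libraries. With 2 libraries against 2, a two-sided test that reassigns the library labels cannot give a p below 0.333.

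The 2 place differences are between pairs of libraries, and the c-Maf-only pair stood further from the mixed pairs than the isotype pair did. Regions held by 1 isotype and 1 c-Maf antibody library and no other list lay inside protein-coding genes in 31.5% to 37.0% of cases over the 4 such pairs, and over 100 kb away in 22.8% to 32.0%. The interval of the isotype-only share inside genes overlapped those of all 4 mixed pairs. Whole peak lists differed little. Inside genes lay 39.5% and 38.2% of all isotype peaks (numbers 3 and 4) and 41.2% and 39.1% of all c-Maf antibody peaks.

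**Figure D5:**
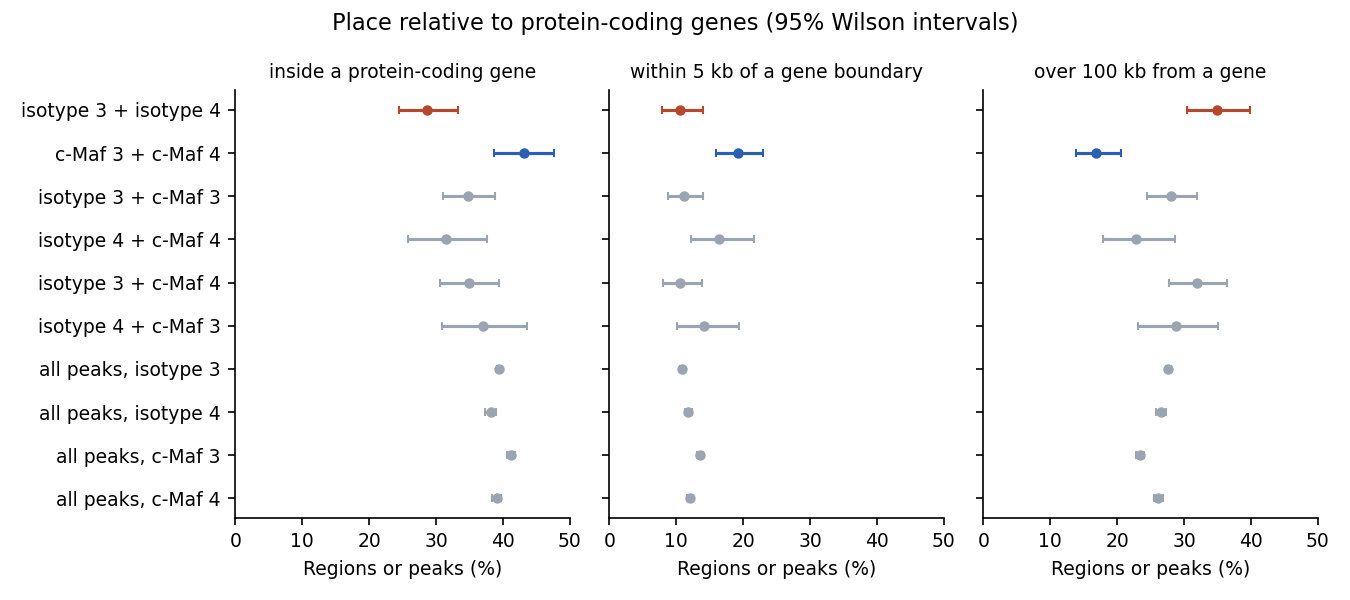
Share of regions or peaks (x axes, percent, with 95% Wilson intervals) inside a protein-coding gene, within 5 kb of a gene boundary and over 100 kb from a gene, for each pair of libraries and for each whole list (y axis). The isotype pair (red) has 28.7% inside and 35.0% over 100 kb away, the c-Maf antibody pair (blue) 43.1% and 16.9%, and the mixed pairs (upper grey) lie between them.

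Densities per length of genome were taken for the 2 sets, of 397 and 473 regions, without scaling for set size. Inside protein-coding genes there were 1.11 isotype-only and 1.98 c-Maf-only regions per 10 Mb. Outside them there were 1.77 and 1.68. The outside value pools all distances, and 139 isotype-only but 80 c-Maf-only regions lay over 100 kb from a protein-coding gene. Genes longer than 500 kb went the other way, with 1.21 isotype-only and 0.684 c-Maf-only regions per 10 Mb, from 23 and 13 regions. No test was made of these densities.

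Few genes had an isotype-only region nearby, 128 of 21627 protein-coding genes (0.592%) with one inside or within 5 kb. None of the 15 genes of Fc receptors and immunoglobulin handling did, nor any of 23 macrophage identity genes, 17 genes of alternative activation, 95 core histone genes or 19 strongly transcribed genes. At the rate of all genes, each of these lists would hold fewer than 1 such gene, so the zeros say little about them. Among 1110 olfactory receptor genes there was 1 (Olfr890, 3843 bp away, pileups 3.92 and 7.85), and among 355 vomeronasal receptor genes 1 (Vmn2r97, pileups 2.94 and 4.91). The median gene span is 0.95 kb in the olfactory and 0.963 kb in the vomeronasal list, although Vmn2r97 itself spans 33750 bp. A c-Maf-only region lay inside or within 5 kb of 267 of the 21627 protein-coding genes. These included 4 macrophage identity genes, 1 gene of Fc receptors and immunoglobulin handling, 1 olfactory and 1 vomeronasal receptor gene. They included no gene of alternative activation, no core histone gene and no strongly transcribed gene.

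Of zinc finger genes, 7 of 416 (1.68%) had an isotype-only region that close: Zfp600, Zfp978, Zfp980, Zfp987, Zfp992 and Zfp993 on chromosome 4 and Zfp936 on chromosome 7. Zfp980 had pileups of 7.83 and 7.85, Zfp992 of 9.79 and 11.77, and Zfp936 of 5.87 and 5.89. Predicted genes named Gm and a number had 15 of 1094 (1.37%). Genes longer than 500 kb had 22 of 226 (9.73%), and these genes each cover more sequence. A c-Maf-only region lay as close to 10 of the 416 zinc finger genes, 13 of the 1094 predicted genes and 13 of the 226 long genes.

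The 23 isotype-only regions inside those long genes had values within the range of the scattered regions elsewhere. Pileup ran from 2.94 to 7.83 in number 3 (median 4.89) and from 3.92 to 6.87 in number 4 (median 5.89), and the median input was 0.421 and 0.444. The 316 scattered regions outside these genes had median pileups of 3.92 and 5.89 and the same median inputs. The nearest c-Maf antibody peak lay a median of 24536 bp away (2493 to 168594 bp) for the 23 regions inside long genes. For the 316 others the median was 19371.5 bp (7 to 250884 bp). The 22 genes include the teneurin genes Tenm1, Tenm2 and Tenm3, the synaptic adhesion gene Nlgn1 (pileups 6.85 and 6.87), the scaffold gene Dlg2 (5.87 and 5.89), the glutamate receptor gene Grid1 (3.92 and 5.89), Ctnna2, Cntn4, Unc13c and Csmd1. Epha6 held 2 of the regions, with pileups of 3.92 and 4.89 in number 3 and 5.89 for both in number 4.

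Only 13 regions (3.27%) lay within 1 kb of a protein-coding gene boundary, against 31 c-Maf-only regions (6.55%). Inside the gene were those at Alms1, a gene of the ciliary base (192 bp from its boundary, pileups 4.89 and 5.89), Tmem45a (485 bp, 4.89 and 5.89), Golt1a, a Golgi transport gene (149 bp, 4.89 and 4.91), Gm7592 (253 bp, 9.79 and 9.81), Igbp1b (560 bp, 2.94 and 5.89) and AI182371 (115 bp, 2.94 and 4.91). Outside were those at Zfp600 (18 bp, 9.79 and 6.87), Htr3a, a serotonin receptor gene (112 bp, 6.85 and 4.91), Zfp987 (262 bp, 7.83 and 5.89), Foxf2, a forkhead factor gene (389 bp, 5.87 and 3.92), Gm9758 (417 bp, 9.79 and 12.76), Gm5862 (578 bp, 3.92 and 6.87) and Gm9495 (947 bp, 9.79 and 7.85). Since the gene table gives no strand, a boundary may be a start or an end.

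Counting also regions that lay inside an overlapping protein-coding gene, 37 isotype-only regions (9.32%) lay in a long noncoding RNA gene and 18 (4.53%) in a pseudogene, against 8.46% and 1.06% of c-Maf-only regions. Of the 18 in pseudogenes, 11 were in clusters. Transcribed pseudogenes such as Pisd-ps1 are counted apart from these and held 2 isotype-only and 2 c-Maf-only regions. The shares over all merged regions were not worked out, and the differences were not tested.

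The rule has 2 edges, which show how far membership depends on single base pairs. Just inside, the region at chr2:99779341-99779448 joined peaks that overlapped by 1 bp (pileups 3.92 and 3.92), and 2 regions on chromosome 9, one of them inside Dcps, by 2 bp. Just outside, 4 pairs of isotype peaks abutted with no base shared, and 183 pairs lay within 100 bp of each other without overlap. The nearest c-Maf antibody peak to an isotype-only region was 7 bp away, on chromosome 5 (pileups 5.87 and 4.91), and the next were 14 bp and 28 bp away on chromosomes 8 and 10. A c-Maf antibody peak lay within 1 kb of 44 regions (11.1%) and within 10 kb of 155 (39.0%).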

How the data were processed

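Each of the 4 antibody libraries has 1 peak list, called by the authors with MACS 2.1.1.20160309 on single-end tags of 50 bp at a p-value cutoff of 0.01 with 1 input as control for all lists, per the file headers. Larger libraries were scaled to smaller ones, per the file headers. The submitters' processing notes name mm10. No source used here names the aligner. Deposited columns give the summit pileup signal, the fold enrichment (a ratio of pileup to input with 1 added to both), and the −log10 of p-value and q-value, per the file headers. Recomputing p from pileup and the recovered input matched the deposited −log10 values within 0.02 for at least 99.99% of peaks in each list.

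Peaks were merged by overlap of 1 bp with Python 3.11.15 and pandas 2.3.3, a step tested on simulated data. Genes came from the RefSeq table of GRCm38.p6, with 21627 protein-coding genes on chromosomes 1 to 19 and X, matched by position. Promoter sequences are RefSeq's, GRCm38.p6, without chromosome 18. Shares carry 95% Wilson intervals. Differences were tested by Fisher's exact test, two-sided (scipy 1.17.1), adjusted over 2 comparisons by Benjamini-Hochberg. Named items are genes in clusters of 5 or more, the 10 highest pileups, the 10 widest, the 5 best ranks, listed genes within 5 kb, regions within 1 kb of a boundary, genes with 2 or more regions, and regions at the edge of the rule. Others are named from smaller clusters. A few items meeting this rule are not reported here. The members and gene lists were chosen with earlier results of these data known. Tags are not independent molecules, since they carry no molecular identifiers.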

Additional observations from a re-analysis of the deposited data

How the results depend on the processing

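The number of isotype-only regions depended on the settings. It was 220 when the isotype peaks had to overlap by 50% of each, 40 at a p-value of 1e-05 or smaller and 150 when every list was cut to the length of the shortest, beside 278, 78 and 376 c-Maf-only regions. Leaving out 1 c-Maf antibody library gave 442 (number 3) or 458 (number 4), with both isotype lists still defining the regions. Leaving out 1 isotype library gave 14577 (number 3) or 57055 (number 4), since 1 isotype list alone then defines the regions. The share inside protein-coding genes stayed below that of c-Maf-only regions in every setting run, but the difference lost its call at a p-value of 1e-05 (37.5% against 47.4%) and without isotype number 4 (39.5% against 41.9%), with a range of 29.6% to 39.5% over left-out libraries. The share within 5 kb lost its call with peaks overlapping by 50% (10.5% against 16.9%), at a p-value of 1e-05 (20% against 29.5%), with all genes of the table (26.7% against 32.8%), and without c-Maf antibody number 3 (11.5% against 11.8%) or number 4 (11.8% against 13.4%), with a range of 10.8% to 11.8%. The clustered share was 22.5% at a p-value of 1e-05, 3.78% with clusters joined within 10 kb, 32.0% within 1 Mb, and 7.46% with a local input below 2, a setting chosen after seeing the data, as was keeping scattered regions alone. It was 21.5% to 98.0% without 1 library. At a p-value of 1e-05 there are fewer regions to compare. For the other lost calls the cause was not tested. Leaving out a library leaves the other list alone to define its set. Without c-Maf antibody number 3 there were 16422 c-Maf-only regions, and 12.0% of all number 4 peaks lay within 5 kb. Without number 4 there were 22126, and 13.5% of all number 3 peaks did. Without isotype number 4 there were 57055 isotype-only regions, and 39.5% of all isotype number 3 peaks lay inside genes. With a replicate block, in which a c-Maf antibody peak removes a region only through the isotype peak of its own number, there were 399 regions and 29.1% lay inside genes, and no call changed. The sign of the difference in place between isotype-only and c-Maf-only regions did not reverse in any setting run. For the clustered share it did: 15.1% stood below the 16.1% of c-Maf-only regions, but 14.5% stood above 14.0% with peaks overlapping by 50%, 22.5% above 15.4% at a p-value of 1e-05, 16.7% above 13.0% with equal list lengths and 7.46% above 6.25% with a local input below 2. It also stood above without either isotype library, where 14577 or 57055 isotype-only regions were set against 509 or 540 c-Maf-only ones. With a fixed gap of 100 kb the clustered share rises with the number of regions, so these leave-out settings cannot compare the clustering. The difference in clustered share was not tested. A median region of 5 and 6 tags leaves the presence of any single region uncertain.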
